A study of Mus musculus with 15 samples.

Results

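The apolipoproteins and lipid transport receptors described here are 10 genes of 55401 counted in the mouse hippocampus. They were taken as a list of symbols and matched to the gene identifiers of the count files. No cut-off on measured values was applied, but the list was chosen with earlier results of these data known. They are the apolipoprotein genes Apoe, Clu and Apod, the sterol exporters Abca1 and Abcg1, the lipoprotein receptors Lrp1, Lrp8, Vldlr and Scarb1, and Lcat, an enzyme that esterifies cholesterol. All 10 passed the filter on low counts, as did 19536 genes in all.

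RNA was sequenced from the hippocampus of 15 female mice aged 18 to 20 months. Tg2576 mice carry a human APP gene with the Swedish mutation, driven by the prion promoter, and their littermates without the transgene served as WT. Mice received docosahexaenoic acid (DHA, an omega-3 fatty acid) at 450 mg/kg each day for 5 weeks, or the sesame oil vehicle. The groups were WT vehicle (n = 4), WT DHA (n = 4), Tg2576 vehicle (n = 4) and Tg2576 DHA (n = 3). The comparisons ask whether the transgene, DHA, or both together go with a different RNA level.

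In brain, lipids travel between cells on particles built mainly around apolipoprotein E, which astrocytes release and which microglia also make when activated. Abca1 and Abcg1 load cholesterol and phospholipid onto these particles, Lcat matures them, and cell-surface lipoprotein receptors take them up. Expression of the exporters and of Apoe is raised by liver X receptors (LXR) when oxysterols accumulate, whereas genes of sterol synthesis and uptake and the sensor gene Insig1 are raised by SREBP2 when sterol is scarce.

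Between 17372864 and 46596489 reads were counted per mouse (median 25645977). App, whose counts hold reads of the human transgene that map to the mouse gene, checked the labels. Under vehicle its level, in CPM (read counts scaled to a common library size), was 1703 ± 86.5 (SD, n = 4) for WT and 2342 ± 221 (SD, n = 4) for Tg2576 mice. Under DHA it was 1641 ± 64.3 (SD, n = 4) for WT and 2542 ± 251 (SD, n = 3) for Tg2576 mice. The genotypes did not overlap under either treatment, and the mean log2 fold change over both was 0.55 (SE 0.062, edgeR adjusted p = 0.00171). Marker lists of neurons, astrocytes and oligodendrocytes summed to at least 10645, 5229 and 5554 CPM in each mouse. The summed level of 12 choroid plexus markers, by contrast, ranged from 71.6 to 5942 CPM between mice. In the Tg2576 DHA mice it was 3202 to 5245 CPM. The medians were 1489 CPM in WT vehicle, 264 CPM in WT DHA and 838 CPM in Tg2576 vehicle mice, and the groups overlapped. All 12 markers had a positive difference for genotype under DHA, for DHA in Tg2576 mice and for the interaction. For genotype under vehicle 11 were negative, and for DHA in WT mice all 12. None had an unadjusted edgeR p under 0.01. The part of this tissue in the gene levels was not tested. In bulk tissue, fewer cells of a type and less RNA per cell cannot be told apart.

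Levels were first compared between the genes per exon length, as CPM per kilobase of exon (RPKM) over the 15 mice. Apoe stood first with a mean of 1146 ± 152 RPKM (SD, n = 15), and its mean level was above that of 99.9% of the genes tested. Clu, a secreted chaperone also called apolipoprotein J, followed at 341 ± 41.7 RPKM (SD, n = 15). Apod, a small lipid-binding lipocalin, came next at 85.8 ± 68.6 RPKM (SD, n = 15). These 3 genes, which encode secreted proteins, had the highest means per length, that of Apod with 1 mouse at 325 RPKM. Lrp1, a large endocytic receptor of neurons and glia, averaged 35.1 RPKM, and Lcat 20.2 RPKM. Abcg1 averaged 12.8, Vldlr 8.54 and Lrp8 7.34 RPKM. Abca1 at 4.15 and Scarb1 at 3.98 RPKM were lowest, near the middle of all genes tested. The lowest Apoe mouse lay above the highest Clu mouse, and the lowest Lrp1 mouse above the highest Lcat mouse. Likewise the lowest Abcg1 mouse lay above the highest Vldlr mouse. The other neighbours in this order had ranges that overlapped between mice. They were Clu and Apod, Apod and Lrp1, Lcat and Abcg1, Vldlr and Lrp8, Lrp8 and Abca1, and Abca1 and Scarb1. Within each mouse, though, Clu lay above Apod and Apod above Lrp1. The closest were 358 against 325 RPKM in Tg2576 vehicle replicate 1 and 38.6 against 35.8 RPKM in WT DHA replicate 1. In the remaining pairs the order was not the same in all mice.

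**Figure D1:**
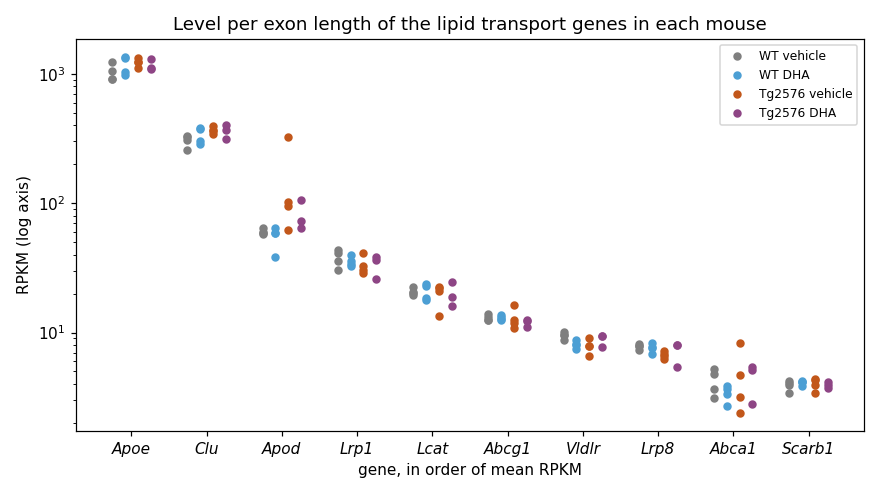
RPKM on a log axis (vertical) of the 10 genes in order of their mean (horizontal), with 1 point per mouse coloured by group. Apoe lay at 906 RPKM or more in each mouse, and the single Apod point near 325 RPKM is Tg2576 vehicle replicate 1.

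None of the 10 genes passed the threshold, an unadjusted edgeR quasi-likelihood p under 0.01, in any of 7 comparisons. Adjusted p values (Benjamini-Hochberg over all genes tested) are given below, and the threshold is always the unadjusted one. Between Tg2576 and WT mice under vehicle, 3 of the 10 had a p under 0.05, where 10.7% of all genes tested did, and 0 of 10 had a p under 0.01, where 3.09% did. Under DHA no member had a p under 0.05, where 6.86% of genes did, and 1.75% passed 0.01. For DHA in WT mice 1 of 10 had a p under 0.05 (background 5.92%, and 1.38% under 0.01), and for DHA in Tg2576 mice 0 of 10 (background 3.16%, and 0.353% under 0.01). For the interaction, which compares the DHA response of Tg2576 with that of WT mice, the count was 1 of 10 (background 5.12%, and 0.829% under 0.01). The mean genotype effect over both treatments gave 2 of 10 (background 11.6%, and 3.85% under 0.01), and the mean DHA effect over both genotypes 0 of 10 (background 3.78%, and 0.870% under 0.01). Comparisons that share a group of mice are not independent. The p values judge each difference against the spread between mice, each sequenced once.

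**Figure D2:**
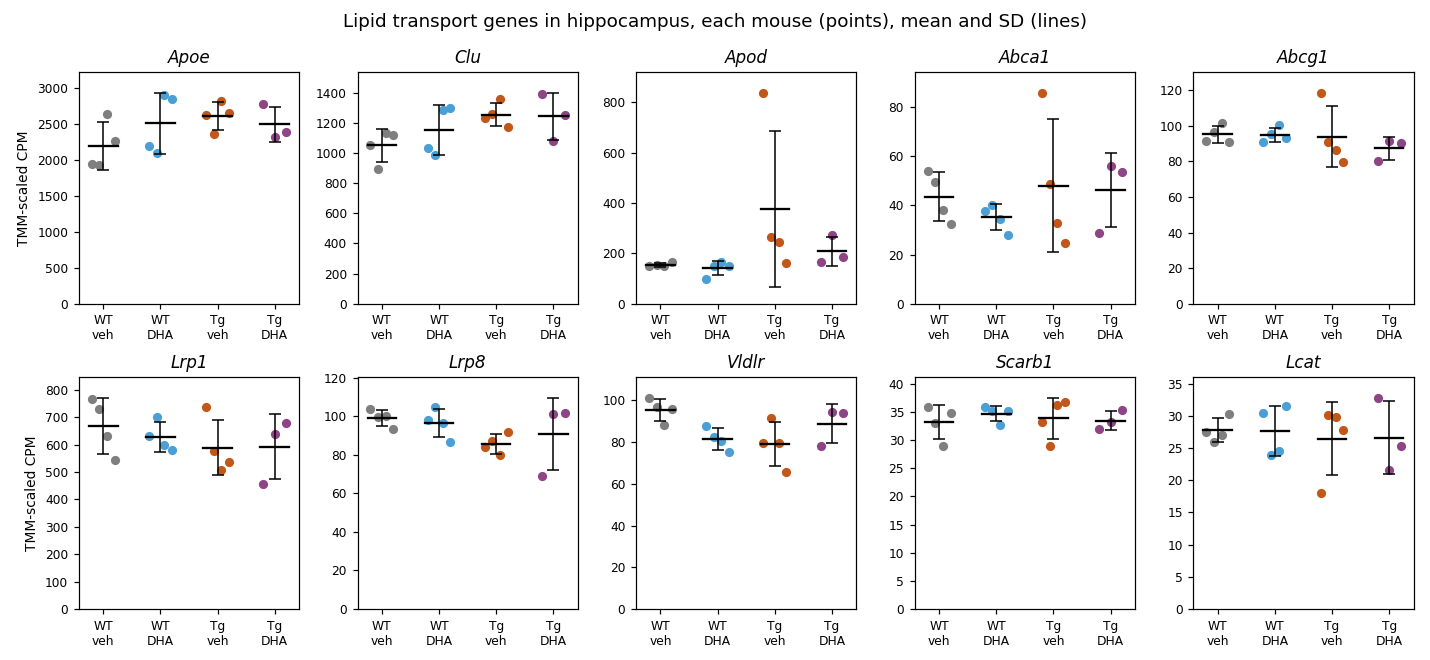
TMM-scaled CPM (vertical, from 0) of each of the 10 genes in each mouse, by group (horizontal). Points are mice, the wide line is the group mean and the bars are 1 SD. Apod in Tg2576 vehicle replicate 1 stands at 837 CPM above the other 14 mice, and Vldlr in WT vehicle mice lies above that in WT DHA mice.

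Among the apolipoproteins, Apoe was measured with 40042 to 90450 reads per mouse (ENSMUSG00000002985.16, minus strand, chr7:19696109-19699188, GRCm38). Its level was 1948, 1936, 2633 and 2256 CPM in the WT vehicle mice and 2621, 2358, 2819 and 2650 CPM in the Tg2576 vehicle mice. It was 2198, 2096, 2899 and 2846 CPM in the WT DHA mice and 2778, 2322 and 2384 CPM in the Tg2576 DHA mice. The 2 lowest mice were WT vehicle mice, but all 4 groups overlapped. The log2 fold change of Tg2576 against WT was 0.25 under vehicle (SE 0.12, adjusted p = 0.471). Under DHA the difference was within its error, with a 95% interval of -0.29 to 0.27, which leaves room for a change of either sign. The difference of the DHA responses between the genotypes was -0.26 (SE 0.18, adjusted p = 0.845), so no difference between these effects was shown.

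Clu (ENSMUSG00000022037.15, plus strand, chr14:65968483-65981547) gave 1055, 893, 1135 and 1119 CPM in WT vehicle and 1231, 1260, 1356 and 1172 CPM in Tg2576 vehicle mice. The groups did not overlap, and Tg2576 was the higher one, as for 2.18% of all genes tested in that direction. The log2 fold change was 0.26 (SE 0.11, adjusted p = 0.406), with an unadjusted p between 0.01 and 0.05. In WT DHA mice Clu stood at 1036, 987, 1288 and 1300 CPM and in Tg2576 DHA mice at 1392, 1082 and 1254 CPM, with overlap of the groups. The mean genotype effect was 0.18 (SE 0.080, adjusted p = 0.390).

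Apoe and Clu went together between mice. Over 15 mice their log2 levels had a Pearson r of 0.861 (permutation p = 4e-05, adjusted over 45 pairs of members 0.0018) and a Spearman rho of 0.882 (permutation p = 8e-05, adjusted 0.0036). Without the 2 mice farthest from the median of Apoe, r was 0.816, and after removal of the group means it was 0.831. Apoe is made by microglia near plaques as well as by astrocytes. Of 16 markers of plaque-associated microglia, 5 rose in vehicle-treated and 8 in DHA-treated Tg2576 mice (unadjusted edgeR p under 0.01), with none lower. Of all genes tested, 3.09% passed under vehicle and 1.75% under DHA. Their summed level was 883 to 1116 CPM in WT vehicle and 949 to 1350 CPM in Tg2576 vehicle mice, and 868 to 1042 CPM in WT DHA and 1053 to 1404 CPM in Tg2576 DHA mice. Ctsb (448 to 603 CPM over all mice) and Ctsd (170 to 394 CPM) had the highest levels of these markers, so the sum mainly follows them. Of 14 astrocyte markers, 1 rose and 1 fell in each of these genotype comparisons, against the same shares of all genes. The astrocyte sum was 5229 to 6430 CPM in WT vehicle and 5324 to 6285 CPM in Tg2576 vehicle mice. The part of these cells in the Apoe and Clu levels was not tested.

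Apod showed the widest spread of the 10 genes, with a within-group SD of 0.58 on the log2 scale against a median of 0.25 over all genes tested. In the WT vehicle mice Apod (ENSMUSG00000022548.14, minus strand, chr16:31296192-31314808) stood at 150, 154, 148 and 165 CPM. In the Tg2576 vehicle mice it stood at 837, 263, 243 and 161 CPM, so 1 mouse lay far above the other 3, and the lowest lay within the WT range. In the WT DHA mice it was 99.5, 150, 165 and 152 CPM, and in the Tg2576 DHA mice 166, 274 and 186 CPM. The DHA-treated groups did not overlap, with Tg2576 higher, as for 3.91% of all genes tested. The log2 fold change of Tg2576 against WT was 1.28 under vehicle (SE 0.42, adjusted p = 0.326) and 0.56 under DHA (SE 0.45, adjusted p = 0.846). The mean genotype effect was 0.92 (SE 0.31, adjusted p = 0.270).

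Leaving out Tg2576 vehicle replicate 1 moved several of these values. Without it, the mean genotype effect was smaller, 0.54 on the log2 scale, while its adjusted p fell to 0.0950 and the unadjusted p passed the threshold. The difference under vehicle was then 0.53. The estimated DHA difference within Tg2576 mice, -0.85 with all mice (SE 0.46, adjusted p = 0.999), shrank to -0.09 without that mouse. The interaction turned from -0.72 to 0.036. Other choices also brought Apod past the threshold: the mean genotype effect passed in 4 of 15 fits without 1 mouse and in 6 of 9 other settings, and the difference under vehicle in 3 of 15 and 5 of 10. Under DHA the difference fell to 0.32 without Tg2576 DHA replicate 2. Of the 7 Tg2576 mice, 6 lay above each of the 8 WT mice.

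Markers of meningeal fibroblasts, cells known to express Apod, were also mostly higher in Tg2576 mice. Of 12 such markers, 11 had a positive difference under vehicle (median log2 0.69) and 12 under DHA (median 0.60), with 0 past the threshold and none without reads in any mouse. Their summed level was 57.0, 165, 102 and 39.4 CPM in Tg2576 vehicle replicates 1 to 4, and 54.5, 172 and 98.1 CPM in the Tg2576 DHA mice. It was 40.0 to 78.4 CPM in WT vehicle and 46.8 to 109 CPM in WT DHA mice. Apart from Tg2576 vehicle replicate 1, which had the highest Apod and a sum within the WT vehicle range, the order of the Tg2576 mice within each treatment was that of Apod. The WT mice did not share this order. WT vehicle replicate 3 had the highest sum of its group (78.4 CPM) and its lowest Apod (148 CPM). Over all 15 mice the log2 sum and log2 Apod had a Pearson r of 0.278, given without a test. The part of these cells in the Apod levels was not tested.

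The sterol exporter Abca1 came next in spread, with a within-group SD of 0.51 on the log2 scale. Abca1 (ENSMUSG00000015243.4, minus strand, chr4:53030787-53159895) moves cholesterol and phospholipid out of the cell onto apolipoprotein E. Its promoter is printed because Abca1 is the member best known as a target of LXR and varied most between mice after Apod. The RefSeq window on GRCm38.p6 is minus strand, chr4:53159896-53160145, the 250 bases before the annotated start, written 5′ to 3′. Capitals mark the matches to TATAAA, the TATA box, CACGTG, a site shape of basic helix-loop-helix factors, GGGCGG, the GC box, and CCAAT, each searched on both strands.

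Abca1: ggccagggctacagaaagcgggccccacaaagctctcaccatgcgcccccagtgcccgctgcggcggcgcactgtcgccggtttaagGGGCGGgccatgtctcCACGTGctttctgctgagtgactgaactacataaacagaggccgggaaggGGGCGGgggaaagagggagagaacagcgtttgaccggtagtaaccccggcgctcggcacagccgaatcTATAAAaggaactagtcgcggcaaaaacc

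CACGTG occurred in 6.02% of 32851 RefSeq windows of this length, TATAAA in 12.4% and GGGCGG in 32.7%. Windows were found for 7 of the 10 genes. A match describes letters and says nothing of binding in these mice. Sites of LXR were not searched for, so letters left in lower case do not mean that none is present.

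Abca1 levels were 53.8, 49.6, 38.2 and 32.5 CPM in WT vehicle and 37.9, 40.2, 34.5 and 27.9 CPM in WT DHA mice. They were 85.6, 48.5, 32.9 and 24.7 CPM in Tg2576 vehicle and 28.8, 56.0 and 53.4 CPM in Tg2576 DHA mice. The Tg2576 vehicle group held both the highest and the lowest of all 15 mice, and no groups were separated. The 95% interval of the genotype difference under vehicle was -0.59 to 0.86 on the log2 scale, and that of DHA in WT mice -1.04 to 0.42, so these data do not exclude changes of that size. Under DHA the genotype difference was 0.39 (SE 0.36, adjusted p = 0.871), and it went from 0.23 without Tg2576 DHA replicate 2 to 0.64 without Tg2576 DHA replicate 1.

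Abcg1 (ENSMUSG00000024030.7, plus strand, chr17:31057675-31117988), which exports sterol to particles that already carry lipid, varied far less, with a within-group SD of 0.15. It stood between 90.8 and 101 CPM in the 4 WT vehicle mice, between 90.6 and 100 CPM in WT DHA mice, between 79.7 and 118 CPM in Tg2576 vehicle mice and between 80.0 and 91.5 CPM in Tg2576 DHA mice. All groups overlapped. The genotype difference under DHA was -0.12 (SE 0.11, adjusted p = 0.866; -0.058 without Tg2576 DHA replicate 1), and its 95% interval under vehicle was -0.24 to 0.20.

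Among the receptors, Vldlr, which binds apolipoprotein E and, with Lrp8, the signalling protein reelin, came nearest to the threshold. Vldlr (ENSMUSG00000024924.14, plus strand, chr19:27216484-27254231) stood at 101, 96.7, 88.3 and 95.8 CPM in WT vehicle mice and at 87.6, 82.6, 80.3 and 75.4 CPM in WT DHA mice. These groups did not overlap, the DHA mice being lower, as for 2.23% of all genes tested. The log2 difference was -0.23 (SE 0.098, adjusted p = 0.817). In Tg2576 mice the levels were 79.6, 91.5, 79.4 and 65.8 CPM under vehicle and 78.0, 94.2 and 94.1 CPM under DHA, with overlap and a difference of 0.17 (SE 0.11, adjusted p = 0.999). The interaction was 0.40 on the log2 scale (SE 0.14, 95% interval 0.093 to 0.70, adjusted p = 0.845). It missed the threshold in the fit of all mice and passed it at 0.47 without Tg2576 vehicle replicate 2 (adjusted p = 0.535) and at 0.47 without Tg2576 DHA replicate 1 (adjusted p = 0.364). Between genotypes under vehicle the Vldlr difference was -0.27 (SE 0.098, adjusted p = 0.339), and under DHA 0.12 (SE 0.11, adjusted p = 0.851). Without 1 mouse these ranged from -0.35 to -0.17, the latter without Tg2576 vehicle replicate 4, and from 0.080 to 0.21, the latter without Tg2576 DHA replicate 1, and the DHA difference in Tg2576 mice from 0.081 without Tg2576 vehicle replicate 4 to 0.25 without Tg2576 DHA replicate 1. The vehicle difference passed the threshold at -0.31 without WT vehicle replicate 3 (adjusted p = 0.258) and at -0.35 without Tg2576 vehicle replicate 2 (adjusted p = 0.179).

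Lrp8 (ENSMUSG00000028613.15, plus strand, chr4:107801869-107876840), known as the apolipoprotein E receptor 2, gave 104, 99.7, 100 and 93.5 CPM in WT vehicle mice and 83.8, 87.2, 79.8 and 91.7 CPM in Tg2576 vehicle mice. The groups did not overlap, with Tg2576 lower, as for 2.98% of all genes tested. The log2 fold change was -0.21 (SE 0.11, adjusted p = 0.489). In WT DHA mice Lrp8 was 97.8, 105, 96.7 and 86.5 CPM and in Tg2576 DHA mice 69.1, 101 and 102 CPM, 1 mouse of the latter being the lowest of all 15. The 95% interval of the genotype difference under DHA was -0.33 to 0.15. Antisense genes overlap the span of Lrp8 at a mean of at most 1.07 CPM. The counting is not stated to use strand. If it did not, any reads on exons shared with these genes were left out of the Lrp8 counts.

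Lrp1 (ENSMUSG00000040249.15, minus strand, chr10:127538161-127621148) stood between 543 and 767 CPM in WT vehicle, 581 and 702 CPM in WT DHA, 507 and 736 CPM in Tg2576 vehicle and 457 and 679 CPM in Tg2576 DHA mice. All groups overlapped, and the genotype difference under vehicle was -0.18 (SE 0.14, adjusted p = 0.678), between -0.31 without Tg2576 vehicle replicate 1 and -0.11 without WT vehicle replicate 1. Scarb1 (ENSMUSG00000037936.15, minus strand, chr5:125277087-125341094), the high-density lipoprotein receptor, was the steadiest of the 10 genes. It lay between 29.0 and 36.9 CPM in all mice, with a within-group SD of 0.12 on the log2 scale. Its 95% intervals were -0.17 to 0.22 for genotype under vehicle and -0.13 to 0.26 for DHA in WT mice, so a change above 0.26 lies outside them.

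Lcat (ENSMUSG00000035237.7, minus strand, chr8:105939551-105943382) averaged 27.7 ± 1.86 CPM (SD, n = 4) with vehicle and 27.6 ± 3.95 CPM (SD, n = 4) with DHA in WT mice. It averaged 26.5 ± 5.69 CPM (SD, n = 4) with vehicle and 26.6 ± 5.65 CPM (SD, n = 3) with DHA in Tg2576 mice. These means differed by less than the spread between mice. The lowest mouse, at 18.1 CPM, was Tg2576 vehicle replicate 1.

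**Figure D3:**
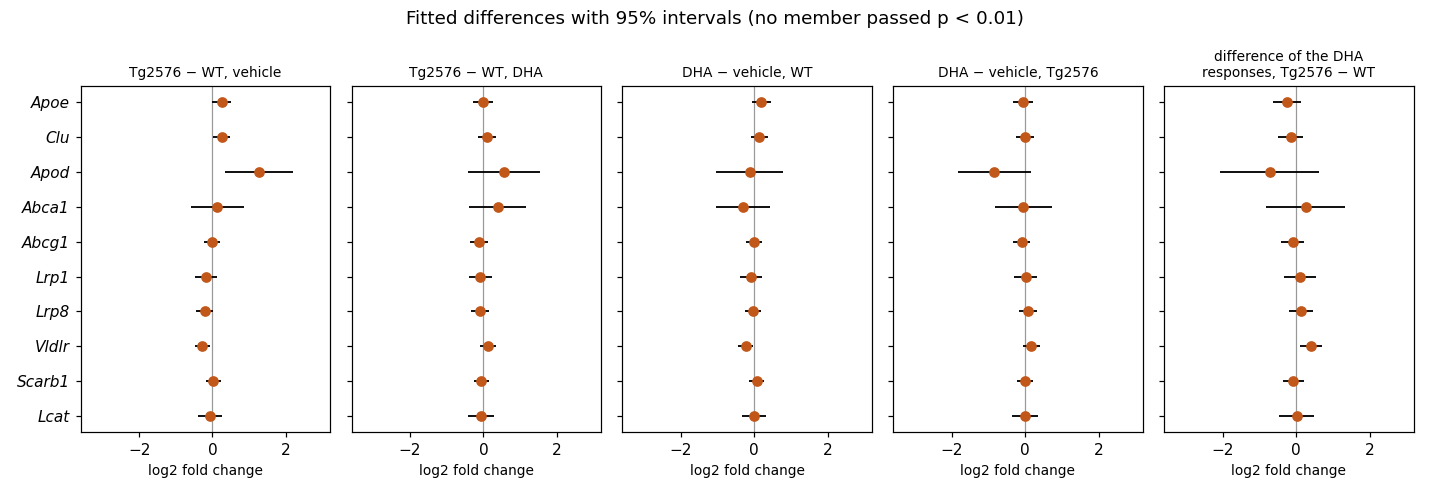
Fitted log2 fold changes (horizontal) of the 10 genes (vertical) in 4 pairwise comparisons and the interaction, with 95% intervals. The intervals of Apod and Abca1 are the widest, and those of Apod, Clu and Vldlr under vehicle, of Vldlr for DHA in WT mice and of Vldlr for the interaction lie to one side of 0.

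The mouse named above, Tg2576 vehicle replicate 1, held the highest level of the 15 for Apod (837 CPM, next 274), Abca1 (85.6 CPM, next 56.0) and Abcg1 (118 CPM, next 101), and the lowest for Lcat (18.1 CPM, next 21.6). It also stood apart beyond these genes. In it, 21 of all genes tested lay more than 2-fold above each other mouse at 4 CPM or more, and 11 lay more than 2-fold below. In the other 14 mice the first count was 0 to 3, except for 15 in WT vehicle replicate 3, and the second was 0 to 3. That count was made after the values were seen. The 15 genes of WT vehicle replicate 3 included Fat2, Cbln3, Ppp1r17, Cnpy1, Pcp2, Car8, En2 and Zic1, also picked after the values were seen. Cbln3 stood at 26.8 CPM in it, against 0.290 to 1.66 CPM in the other mice. Fat2 had the largest ratio over the next highest mouse (20.1). This mouse is part of the WT vehicle group in the comparisons above, and the origin of these reads was not tested. Among the 21 in Tg2576 vehicle replicate 1 was Plin4, which coats lipid droplets, at 113 CPM against 5.28 to 19.1 in the other mice. Pnpla2, the lipase that starts the breakdown of stored triglyceride, was also among them at 53.0 CPM against 19.3 to 26.2. Both were picked for their role in lipid storage after the values were seen. Over the next highest mouse, Plin4 had the largest ratio of the 21 (5.93) and Pnpla2 the smallest (2.02). Others of the 21 were Gabrr2, Rtp1, Etnppl, Cdkn1a, Hif3a, Tgtp1, Tgtp2 and Gbp4. Among the 11 lower genes were the oligodendrocyte gene Opalin, at 6.02 CPM against 19.3 to 50.5, and the microglial gene Fcrls, at 1.70 CPM against 7.66 to 30.0. Of Tg2576 vehicle mice, it had the lowest summed markers of oligodendrocytes (5903 CPM) and of plaque-associated microglia (949 CPM).

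**Figure D4:**
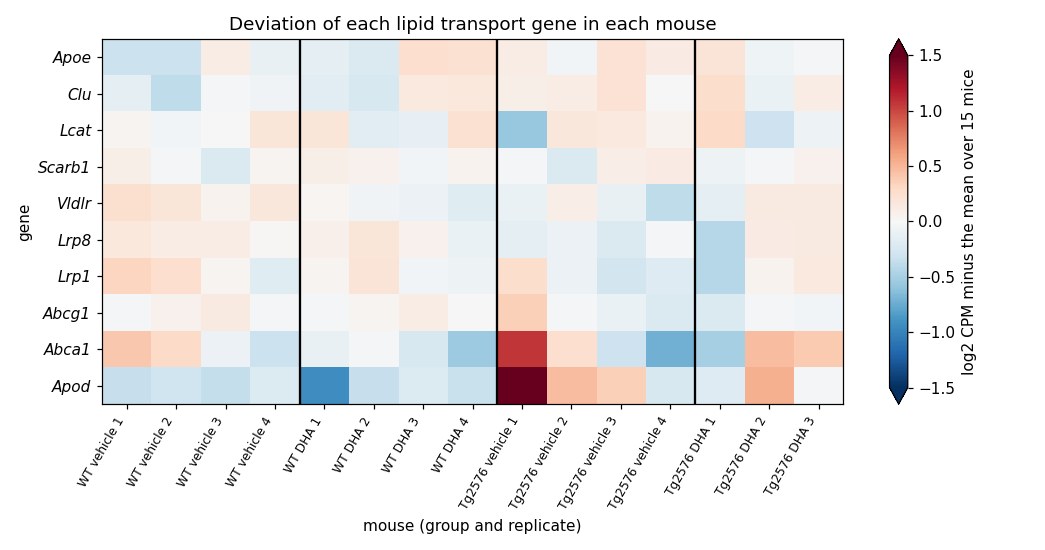
Colour gives the log2 CPM of each gene (rows) in each mouse (columns, by group) minus its mean over the 15 mice. The scale stops at 1.5, which Apod in Tg2576 vehicle replicate 1 exceeds. That mouse is the darkest red for Apod and Abca1 and the darkest blue for Lcat.

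Of the 45 pairs of members, 15 had an adjusted permutation p under 0.05 for Pearson r, 6 positive and 9 negative. Abca1 and Lrp1 had r = 0.754 (adjusted permutation p = 0.0178, rho 0.825, adjusted p = 0.0081) over 15 mice, and 0.736 without the 2 mice farthest in Abca1. Clu and Lrp8 had r = -0.726 (adjusted permutation p = 0.0178, rho -0.739, adjusted p = 0.0268), and -0.732 without the 2 mice farthest in Clu. Apoe and Vldlr had r = -0.719 (adjusted permutation p = 0.0178, rho -0.771, adjusted p = 0.0167), and -0.595 without the 2 farthest. The relation of Apod to Abca1 rested on few mice, since r was 0.649 over all 15 (adjusted permutation p = 0.0370) and 0.108 without the 2 farthest in Apod, with rho 0.293 (adjusted p = 0.484). That of Apod to Lcat likewise went from -0.684 (adjusted permutation p = 0.0401, rho -0.257, adjusted p = 0.515) to 0.068.

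Members of high r differed in exon length in the same way, so each mouse was given a slope of log2 level on log2 exon length over all genes tested. Over 15 mice this slope had r = -0.740 with Apoe (exon length 2138 bases) and -0.652 with Clu (3437 bases), with adjusted permutation p of 0.00597 and 0.0139 over 10 relations. It had r = 0.780 with Vldlr (10068 bases), 0.745 with Lrp1 (17717 bases), 0.713 with Abca1 (10363 bases) and 0.689 with Lrp8 (12689 bases), with adjusted permutation p between 0.00597 and 0.00896. Spearman rho had the same sign in all 6 relations, at -0.793, -0.689, 0.839, 0.718, 0.771 and 0.693, each with an adjusted permutation p of at most 0.00957. Without the 2 mice of the most extreme slope, r ranged in size from 0.566 for Lrp8 to -0.759 for Apoe. With Apod and Scarb1 r was 0.157 and 0.011. The slope was fitted to all genes tested, these members included, so its sign with long and short genes is partly set in advance. The permutation p values test r against 0, not against genes of like length, and so do not single these members out. The slope was -0.031 to 0.059 in WT vehicle, -0.046 to 0.034 in WT DHA, -0.075 to 0.014 in Tg2576 vehicle and -0.091 to 0.076 in Tg2576 DHA mice, so the groups overlapped. With the slope as a covariate, added after the data were seen, the genotype difference under vehicle was 0.18 for Clu, 0.15 for Apoe, -0.12 for Lrp8, -0.04 for Lrp1 and -0.18 for Vldlr, with adjusted p from 0.410 to 0.939, each smaller in size than without it. For Abca1, the other gene tied to the slope, the same difference went the other way, from 0.14 without the covariate to 0.40 with it (adjusted p = 0.622).

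The genes most like each member over the 15 mice, by Pearson r of log2 CPM among all genes tested, were picked as the highest, 3 for each, and have no test. For Apoe they were Zbtb11os1 (r = 0.924), Zswim7 (0.920) and Babam2 (0.892), and for Clu Pycard (0.894), Gm11694 (0.886) and Apoe. For Apod they were Slc2a4 (0.929), Rhou (0.912) and Pcf11 (0.904). For Abca1 they were Hipk3 (0.950) and Aldh6a1 (0.931), with 1 gene left out, and for Abcg1 Ptpn11 (0.910), Tada2b (0.910) and Brd1 (0.907). Lrp1 was most like Ppargc1b (0.965), Dync1h1 (0.964) and Arid1a (0.963), Lrp8 like Mdn1 (0.960), Kif21b (0.930) and Golgb1 (0.919), and Vldlr like Kcna4 (0.945), Ipo7 (0.934) and Ttll7 (0.924). Lcat was most like Nfia (0.922), Cct3 (0.919) and Ahsa1 (0.916), and Scarb1 reached only 0.828 with Gm12276, 0.798 with Gm35501 and 0.796 with 9430015G10Rik.

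The surrounding pathway was followed in 7 lists of 110 genes, of which 98 passed the filter. Between Tg2576 and WT mice under vehicle 6 of these 98 passed the threshold, 2 higher and 4 lower, against 3.09% of all genes tested. Under DHA 4 passed, all higher (background 1.75%). DHA in WT mice gave 2 (background 1.38%), 1 in each direction, and DHA in Tg2576 mice 0 (background 0.353%). The interaction also gave 0 (background 0.829%), the mean genotype effect 9 (background 3.85%) and the mean DHA effect 1 (background 0.870%). The counts for genotype under vehicle, for genotype under DHA and for the mean genotype effect were above the background share. This is a description without a test, of lists chosen with earlier results known.

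Insig1, which holds the SREBP processing complex in the endoplasmic reticulum when sterol is plentiful and is itself an SREBP target, was higher in Tg2576 mice. It stood at 56.1, 52.3, 43.0 and 56.5 CPM in WT vehicle and 66.6, 86.7, 67.6 and 68.7 CPM in Tg2576 vehicle mice. In WT DHA mice it was 61.2, 66.5, 46.8 and 49.7 CPM and in Tg2576 DHA mice 68.7, 82.5 and 77.8 CPM. The genotypes did not overlap under either treatment. The log2 fold change was 0.48 under vehicle (SE 0.12, adjusted p = 0.198) and 0.44 under DHA (SE 0.13, adjusted p = 0.542). The mean genotype effect was 0.46 (SE 0.092, adjusted p = 0.0492), and it passed the threshold in each of the 15 fits without 1 mouse, with adjusted p from 0.0393 to 0.127. The call under DHA was lost without WT DHA replicate 3 (0.37), WT DHA replicate 4 (0.39), Tg2576 DHA replicate 2 (0.39) or Tg2576 DHA replicate 3 (0.43), each log2 value being that of the fit without the mouse. Its promoter is printed for comparison with that of Abca1, as the pathway gene with the lowest p of the mean genotype effect.

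Insig1: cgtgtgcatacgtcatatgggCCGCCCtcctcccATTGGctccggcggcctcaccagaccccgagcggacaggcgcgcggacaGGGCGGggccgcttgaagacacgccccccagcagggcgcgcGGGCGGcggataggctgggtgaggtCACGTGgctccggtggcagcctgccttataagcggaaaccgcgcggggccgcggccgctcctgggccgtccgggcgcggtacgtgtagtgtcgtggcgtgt

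This RefSeq window (GRCm38.p6, plus strand, chr5:28071162-28071411) held GGGCGG 3 times, CCAAT once (in 33.8% of windows) and CACGTG once, with capitals as above.

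Stard4, a carrier of free cholesterol between membranes and another SREBP2 target, had a mean genotype effect of 0.50 (SE 0.11, adjusted p = 0.0739). It stood at 26.1, 28.1, 16.8 and 24.8 CPM in WT vehicle and 26.7, 32.0, 30.3 and 31.5 CPM in Tg2576 vehicle mice, with overlap. Under DHA it was 22.7, 29.4, 23.3 and 21.4 CPM in WT and 31.7, 43.7 and 40.2 CPM in Tg2576 mice, without overlap, and the log2 fold change was 0.67 (SE 0.16, adjusted p = 0.386). Apoo, a protein of the mitochondrial inner membrane despite its apolipoprotein name, was higher in Tg2576 mice given DHA (log2 fold change 0.64, SE 0.20, adjusted p = 0.548). That call was lost without WT DHA replicate 2 (0.59), WT DHA replicate 4 (0.56) or Tg2576 DHA replicate 1 (0.48), again as log2 fold changes.

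Other lipoprotein receptor-related genes were lower in Tg2576 mice. Lrp1b, a large endocytic receptor of neurons, was 59.9, 59.4, 46.0 and 45.4 CPM in WT vehicle and 37.5, 35.0, 32.2 and 30.4 CPM in Tg2576 vehicle mice, without overlap. Its log2 fold change was -0.64 (SE 0.13, adjusted p = 0.142). It was also lower in WT DHA than in WT vehicle mice, at 39.9, 42.6, 39.6 and 36.7 CPM, with a log2 difference of -0.41 (SE 0.13, adjusted p = 0.647). Both comparisons share the WT vehicle mice. That DHA call was lost without WT vehicle replicate 1 (-0.34) or 2 (-0.35), or without WT DHA replicate 1 (-0.40), 3 (-0.41) or 4 (-0.37), the log2 difference without each mouse being in brackets.

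Lrp4, the agrin receptor of synapses, stood at 52.4, 49.6, 42.5 and 45.2 CPM in WT vehicle and 32.2, 41.7, 37.4 and 32.6 CPM in Tg2576 vehicle mice. The groups did not overlap, and the log2 fold change was -0.40 (SE 0.11, adjusted p = 0.198). Its mean genotype effect was -0.35 (SE 0.078, adjusted p = 0.0745). Lrp1b and Lrp4 have long exons (23774 and 10504 bases), and with the length slope as a covariate their differences under vehicle were -0.48 (adjusted p = 0.0499) and -0.31 (adjusted p = 0.216). Of 12 neuronal markers, 3 fell in vehicle-treated Tg2576 mice (unadjusted edgeR p under 0.01) and none rose, where 3.09% of all genes tested passed. Their sum was 11915 to 13749 CPM in WT vehicle and 11463 to 12366 CPM in Tg2576 vehicle mice. The part of neurons in the receptor levels was not tested.

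**Figure D5:**
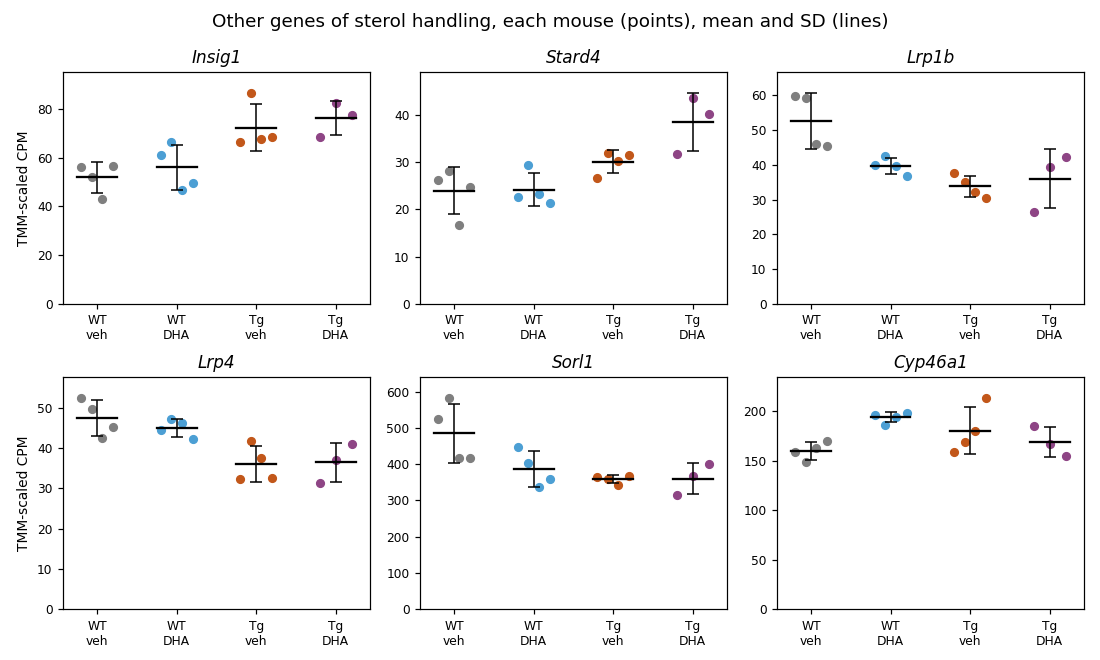
TMM-scaled CPM (vertical, from 0) in each mouse (points) by group (horizontal), with the mean and 1 SD, of 6 other sterol genes. Insig1 lay higher in Tg2576 than in WT mice under both treatments, and Lrp1b and Lrp4 lay lower in Tg2576 vehicle than in WT vehicle mice without overlap. Sorl1, plotted after its values were seen, was also lower under vehicle, and Cyp46a1 lay higher in WT DHA than in WT vehicle mice.

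The calls for DHA, 2 of 98 in WT mice and 1 of 98 for the mean effect, were close to the background shares given above. The genes were named by the rule of lowest p, and their calls are not read as a DHA effect on the pathway. Cyp46a1, the neuronal enzyme that turns cholesterol into 24-hydroxycholesterol for export from brain, was 159, 148, 163 and 170 CPM in WT vehicle and 196, 187, 194 and 198 CPM in WT DHA mice, without overlap. The log2 difference was 0.28 (SE 0.089, adjusted p = 0.647). In Tg2576 mice the means were 180 ± 23.5 CPM (SD, n = 4) with vehicle and 169 ± 14.98 CPM (SD, n = 3) with DHA, a log2 difference of -0.10 (SE 0.097, adjusted p = 0.999). The call in WT mice was lost without WT vehicle replicate 1 (0.27), 2 (0.24) or 3 (0.29), or without WT DHA replicate 1 (0.28), 3 (0.27) or 4 (0.26), again with the log2 difference without each mouse. Cyp27a1, which makes 27-hydroxycholesterol, was lower with DHA over both genotypes by a mean log2 difference of -0.45 (SE 0.15, adjusted p = 0.9998). In WT mice it went from 8.81 ± 1.32 CPM (SD, n = 4) with vehicle to 6.97 ± 1.88 CPM (SD, n = 4) with DHA. In Tg2576 mice it went from 8.49 ± 1.995 CPM (SD, n = 4) with vehicle to 5.78 ± 1.07 CPM (SD, n = 3) with DHA. That call was lost in 9 of the 15 fits without 1 mouse. These left out WT vehicle replicate 1 (-0.46), 3 (-0.40) or 4 (-0.44), WT DHA replicate 1 (-0.40) or 2 (-0.38), Tg2576 vehicle replicate 1 (-0.45) or 4 (-0.37), or Tg2576 DHA replicate 2 (-0.39) or 3 (-0.43). It was also lost with DESeq2 size factors (-0.45), with library sizes without TMM (-0.45) and without the robust option (-0.45).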

How the data were processed

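The authors deposited raw read counts per gene for each of 15 hippocampal samples, made with STAR 2.6.1c and featureCounts 1.6.0 on GRCm38, per the labels, with the GENCODE M25 annotation, per the file headers. Reads shared by several genes or places are left out by the defaults of featureCounts. The library kit is named differently in the labels and in the methods, so strand is not settled here.

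Symbols came from a GENCODE M21 table, which named 55141 of 55401 identifiers and all 10 members. In edgeR 4.0.16 (R 4.3.3), filterByExpr (minimum count 10) kept 19536 genes. TMM factors were 0.961 to 1.03. A robust quasi-likelihood fit with 1 coefficient per group gave 7 two-sided comparisons, with Benjamini-Hochberg adjustment over all genes tested and intervals at 95%. Each SE is the fitted log2 difference over the root of its F. CPM are TMM-scaled, RPKM use the exon lengths of the files, and correlations use log2 CPM with 100000 permutations. The fit was tested on simulated data. Alternatives used limma 3.58.1 (voom) and DESeq2 1.42.0. Figures used matplotlib 3.10.9.

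Named were all members, the 3 pathway genes of lowest p per comparison among those under 0.01, and the 3 genes most like each member. Some genes and their results are not reported here. Of 18 marker lists only those that bear on a member are described. The members and lists were chosen with earlier results of these data known. Replicate numbers did not pair the mice (mean r of deviations 0.018 over 21 same-numbered pairs), and no mice of a group were duplicates (chi-square per gene at least 14.0).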

Additional observations from a re-analysis of the deposited data

Results flagged for a closer look

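One value among 30 groups of 4 mice (the 10 members in 3 groups) lay far from the rest of its group. Apod in Tg2576 vehicle replicate 1 was at 837 CPM, against 161 to 263 CPM in the other 3 mice, and its gap to the nearest of them took up 0.849 of the range of the group. By chance about 1 in 20 such groups would be marked. The group of 3 Tg2576 DHA mice was not checked in this way.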

How the results depend on the processing

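The count of members with p under 0.01 was 0 in each comparison. For genotype under vehicle it became 1 with library sizes without TMM, with DESeq2, with at least 10 counts in every mouse, without the robust option and with the length slope as a covariate (Apod each time), and 1 with no filter and under a replicate block (Vldlr). Without 1 mouse it ranged from 0 to 2. For the mean genotype effect it became 1 (Apod) with library sizes without TMM, DESeq2, limma-voom, at least 10 counts in every mouse, without the robust option and with the length slope, and ranged from 0 to 1 without 1 mouse. For DHA in WT it became 1 (Vldlr) with only the 2 groups compared, and the interaction ranged from 0 to 1 without 1 mouse. The length slope was added after the data were seen. The replicate block changed no other member call. Of 70 log2 differences of members, 33 changed sign in at least 1 refit, and 0 of these 33 passed the unadjusted edgeR threshold in any refit. With limma-voom the sign changed to -0.017 (Abca1, genotype under vehicle), 0.0041 (Apoe, genotype under DHA), 0.072 (Abca1, DHA in Tg2576), -0.018 (Lcat, DHA in Tg2576). With library sizes without TMM the sign changed to 0.012 (Abcg1, genotype under vehicle), 0.028 (Apoe, genotype under DHA), 0.021 (Scarb1, mean genotype effect). With the length slope as a covariate the sign changed to 0.028 (Abcg1, genotype under vehicle), 0.011 (Apoe, genotype under DHA), 0.013 (Apod, DHA in WT), 0.029 (Abcg1, DHA in WT), 0.0088 (Lrp8, DHA in WT), 0.021 (Clu, DHA in Tg2576), -0.077 (Lrp1, DHA in Tg2576), -0.099 (Abca1, interaction), -0.076 (Lrp1, interaction). With a replicate block the sign changed to 0.038 (Apoe, genotype under DHA), 0.00094 (Clu, DHA in Tg2576), -0.043 (Lrp1, DHA in Tg2576), 0.011 (Scarb1, DHA in Tg2576), 0.014 (Lcat, mean DHA effect). With DESeq2 size factors the sign changed to 0.0036 (Abcg1, DHA in WT), 0.0010 (Lcat, DHA in WT), 0.0019 (Lcat, mean DHA effect). With DESeq2 the sign changed to 0.0036 (Abcg1, DHA in WT), 0.0011 (Lcat, DHA in WT), 0.0021 (Lcat, mean DHA effect). Without 1 mouse, those that changed sign ranged from -0.30 to 0.37 (Abca1, genotype under vehicle), -0.15 to 0.066 (Abcg1, genotype under vehicle), -0.034 to 0.094 (Scarb1, genotype under vehicle), -0.13 to 0.076 (Lcat, genotype under vehicle), -0.090 to 0.069 (Apoe, genotype under DHA), -0.20 to 0.074 (Lrp1, genotype under DHA), -0.18 to 0.077 (Lrp8, genotype under DHA), -0.23 to 0.075 (Lcat, genotype under DHA), -0.21 to 0.016 (Apod, DHA in WT), -0.031 to 0.030 (Abcg1, DHA in WT), -0.083 to 0.0072 (Lrp8, DHA in WT), -0.076 to 0.059 (Lcat, DHA in WT), -0.098 to 0.080 (Clu, DHA in Tg2576), -0.27 to 0.38 (Abca1, DHA in Tg2576), -0.18 to 0.028 (Abcg1, DHA in Tg2576), -0.10 to 0.17 (Lrp1, DHA in Tg2576), -0.0082 to 0.25 (Lrp8, DHA in Tg2576), -0.083 to 0.024 (Scarb1, DHA in Tg2576), -0.17 to 0.14 (Lcat, DHA in Tg2576), -0.98 to 0.036 (Apod, interaction), -0.18 to 0.031 (Abcg1, interaction), -0.013 to 0.24 (Lrp1, interaction), -0.17 to 0.13 (Lcat, interaction), -0.043 to 0.021 (Scarb1, mean genotype effect), -0.14 to 0.010 (Lcat, mean genotype effect), -0.29 to 0.036 (Abca1, mean DHA effect), -0.090 to 0.012 (Abcg1, mean DHA effect), -0.096 to 0.045 (Lrp1, mean DHA effect), -0.025 to 0.11 (Lrp8, mean DHA effect), -0.073 to 0.018 (Vldlr, mean DHA effect), -0.010 to 0.049 (Scarb1, mean DHA effect), -0.083 to 0.070 (Lcat, mean DHA effect). The causes were not tested.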
